A study of Mus musculus with 8 samples.

Results

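The genes described here are 9 members of the T-box family of transcription factors (*Tbx1*, *Tbx2*, *Tbx3*, *Tbx4*, *Tbx5*, *Tbx6*, *Tbx15*, *Tbx18* and *Tbx20*), taken by gene symbol from the 27179 genes counted in each library. The T-box genes best known from lymphocytes, *Tbx21* and *Eomes*, were left out of the set. RNA-seq was performed on whole uteri collected at postnatal day 10 (PD10), with 1 library per mouse. The 4 controls were *Ezh2* f/f mice, which carry a floxed *Ezh2* allele and no Cre. The 4 *Ezh2 Amhr2*-Cre cKO mice were *Ezh2* f/f with Cre recombinase expressed from *Amhr2* ("Acre" in the labels), a gene of the mesenchyme around the female tract that is not expressed in the uterine epithelium, so that epithelial cells of cKO uteri keep *Ezh2*. Of the 9 members, 7 passed a filter on low counts (over 0.2 CPM, the counts relative to library size, in 4 or more libraries) and were tested among 16658 genes, and *Tbx5* and *Tbx20* were below this filter.

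T-box proteins share a DNA-binding domain, the T-box, and switch genes on or off in organs as they form. *Tbx2* and *Tbx3* encode repressors that act in the mesenchyme of limbs, lung, heart and mammary gland, often downstream of BMP and WNT signals, and several members are known targets of the polycomb complex that contains EZH2. In the female reproductive tract, the layers that surround the epithelium derive from such mesenchyme.

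*Tbx2* was the member that differed between genotypes: it was 1.58-fold higher in cKO uteri, with every cKO library above every control library. Its log2 fold change was 0.66. With the sum of fat marker genes, which was high in cKO replicates 1 to 3, as a covariate it was 0.42 and did not pass the test. *Tbx3*, the most abundant member, and the 5 other members tested did not pass the test. In either direction, 5.34% of all genes tested had an adjusted *p*-value under 0.05 by edgeR's quasi-likelihood test with Benjamini-Hochberg adjustment, and 2.62% had one and were higher in cKO uteri. No member had a fold change over 2 in addition, where 1.3% of all genes did. Of the 7 members tested, 4 had a log2 fold change above 0 and 3 below, with a median of 0.19, beside a median of 0.00044 and 50.1% above 0 over all genes tested.

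Because T-box genes resemble each other, reads of a member might be counted on another, and the most similar stretch of 120 bases in the coding sequences of *Tbx2* and *Tbx3* is shown to compare them. Both stretches are exonic and lie within the coding sequence (GENCODE transcripts, GRCm38), from base 284 to base 403 in *Tbx2* and from base 278 to base 397 in *Tbx3*, counted from 1 at the start codon. Capitals mark the 20 bases at which they differ.
Tbx2: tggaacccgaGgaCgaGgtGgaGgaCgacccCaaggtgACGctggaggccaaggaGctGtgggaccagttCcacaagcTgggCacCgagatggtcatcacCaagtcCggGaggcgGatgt
Tbx3: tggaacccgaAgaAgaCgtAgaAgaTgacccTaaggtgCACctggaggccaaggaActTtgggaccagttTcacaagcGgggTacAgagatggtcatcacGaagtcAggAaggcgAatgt

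The stretches are 83.3% identical, and the longest run that the 2 coding sequences share is 14 bases. Over all pairs of members, the longest shared run was 23 bases (between *Tbx4* and *Tbx5*, *Tbx5* and *Tbx6*, and *Tbx15* and *Tbx18*). No run of 50 bases from the coding sequence of a member occurred in a transcript of another gene, except for *Tbx18*. For that gene 420 of 1790 runs (23.5%) also lie in *D030062O11Rik*, which overlaps it on the opposite strand. *Tbx3os1* overlaps *Tbx3* on the opposite strand by 697 bases and *Gm43120* overlaps *Tbx15* by 6588 bases, and the libraries were made with a stranded kit, but the strand setting of the counting is not given in the sources used here.

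Libraries held between 25287141 and 36685807 counts on genes, so that 3 counts, the limit that a count of 0 allows, correspond to between 0.0824 and 0.117 CPM. These limits cover counting error only. *Ezh2*, the targeted gene, was at 45.0 ± 8.70 CPM (SD, n = 4) for controls and 36.8 ± 4.41 CPM (SD, n = 4) for cKO mice, with overlapping libraries and a log2 fold change of -0.29 (SE 0.13, adjusted *p* = 0.247, edgeR quasi-likelihood test). This value was -0.18 without control replicate 3 and -0.39 without control replicate 4. The counts cover the whole gene and include cells without Cre. Markers of smooth muscle (*Acta2* and 6 others) summed to between 7281 and 9241 CPM, and these and the lists of stroma and epithelium were detected in full. Of these, 3 of 7 stromal markers (*Hoxa10*, *Hoxd10* and *Amhr2*) and 1 of 7 epithelial markers (*Foxa2*, of glands) fell, none rose, and 0 of 7 smooth muscle markers passed the test. Over all genes tested, 2.71% fell and 2.62% rose. Of all markers, 3 of 7 stromal and 6 of 7 epithelial ones had a log2 fold change above 0. Stromal markers summed to 2932 to 4041 CPM in controls, 3995 to 4200 CPM in cKO replicates 1 to 3 and 3227 CPM in cKO replicate 4, and epithelial markers to 904 to 1102 CPM in control and 999.6 to 1241 CPM in cKO libraries. The sum of fat markers moved with genotype in 3 of the 4 cKO libraries. Their summed level was 12.7 to 16.0 CPM in controls, 114.7 to 245.8 CPM in cKO replicates 1 to 3 and 14.4 CPM in cKO replicate 4. In bulk tissue, fewer cells of a type and less RNA per cell cannot be told apart.

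By level per length of exon, *Tbx3* was first and *Tbx2* was second in both genotypes. In controls *Tbx3* was at 16.8 ± 2.17 CPM per kb, *Tbx2* at 4.96 ± 0.192 and *Tbx1* at 0.710 ± 0.145 (SD, n = 4). *Tbx4* followed at 0.582 ± 0.105 CPM per kb, *Tbx18* at 0.303 ± 0.128, *Tbx6* at 0.278 ± 0.107 and *Tbx15* at 0.0661 ± 0.0367. The neighbours *Tbx1* and *Tbx4*, *Tbx4* and *Tbx18*, and *Tbx18* and *Tbx6* had overlapping ranges in this order, while *Tbx3*, *Tbx2* and *Tbx15* each stood apart from the next.

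In cKO uteri *Tbx3* was at 15.7 ± 1.56 CPM per kb and *Tbx2* at 7.84 ± 1.13 (SD, n = 4), with no overlap between the pair. *Tbx1* (0.827 ± 0.145 CPM per kb), *Tbx4* (0.661 ± 0.142), *Tbx6* (0.496 ± 0.294) and *Tbx18* (0.268 ± 0.180) each overlapped the next in the order, and *Tbx18* also overlapped *Tbx15* (0.0457 ± 0.0364). Of the summed CPM per kb of all 9 members, *Tbx3* took 67.4% to 74.0% in control and 59.9% to 62.8% in cKO libraries. The share of *Tbx2* was 17.6% to 22.8% in control and 28.9% to 32.3% in cKO libraries.

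**Figure D1:**
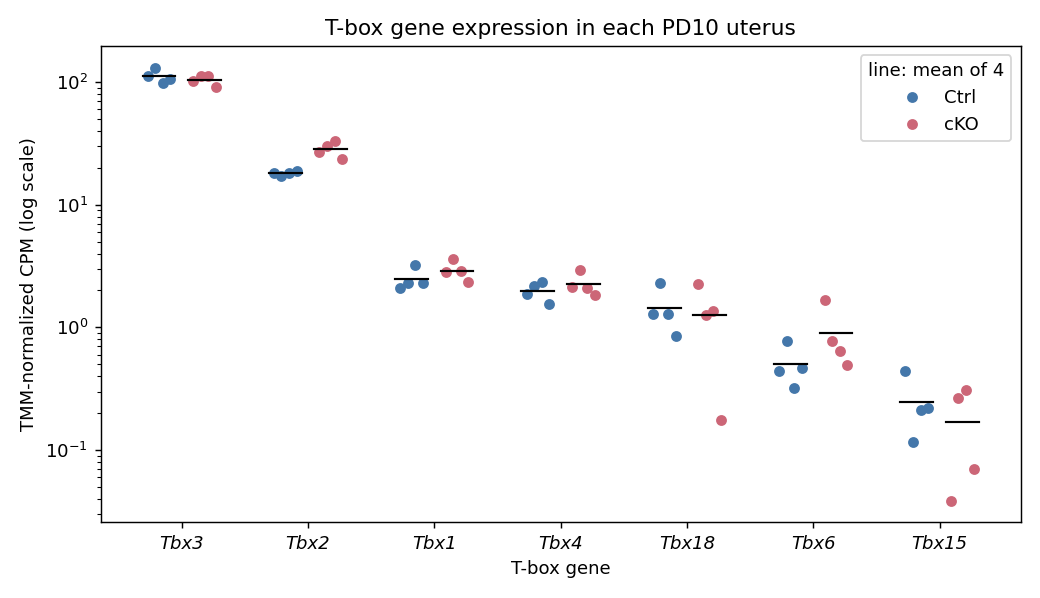
Expression of the 7 members tested in each uterus, as TMM-normalized CPM on a log axis, with 4 control (blue) and 4 cKO (red) libraries per gene and a line at the mean. *Tbx2* is the member whose genotypes do not overlap (highest control 18.7 CPM, lowest cKO 23.7 CPM), and *Tbx18* falls to 0.175 CPM in 1 cKO library.

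*Tbx2* (chromosome 11 of GRCm38 from 85832615 to 85841948) encodes a repressor that holds back differentiation and cell cycle inhibitors in growing mesenchyme. Its expression was 18.2, 17.0, 18.0 and 18.7 CPM in control replicates 1 to 4 and 26.8, 30.3, 33.1 and 23.7 CPM in cKO replicates 1 to 4. The controls lay close together, all cKO libraries lay above them, and cKO replicate 4 was the lowest of its genotype. Mean expression was 18.0 ± 0.697 CPM (SD, n = 4) for controls and 28.4 ± 4.09 CPM (SD, n = 4) for cKO mice, which gave a log2 fold change of 0.66 (SE 0.098, 95% interval 0.45 to 0.87, adjusted *p* = 0.00179, edgeR quasi-likelihood test). The exact permutation test (two-sided) gave *p* = 0.029, the smallest that 4 against 4 libraries allow. Between 440 and 1073 counts per library lie behind these values. Over all genes tested, 12.3% had libraries that did not overlap between genotypes (5.9% higher and 6.43% lower in cKO uteri). *Tbx2* was also the 1 member with an unadjusted *p*-value under 0.05, where 21.2% of all genes had one.

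**Figure D2:**
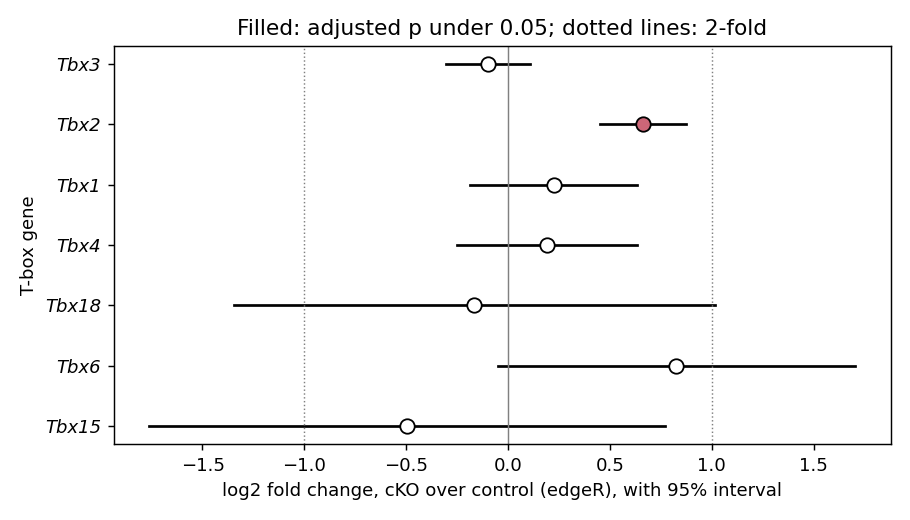
Log2 fold change of each member tested, cKO over control, with its 95% interval from edgeR's quasi-likelihood fit (dotted lines mark a 2-fold change). The interval of *Tbx2* (0.45 to 0.87) lies above 0 and below the 2-fold line, that of *Tbx3* (-0.30 to 0.11) is as narrow and includes 0, and those of *Tbx6*, *Tbx15* and *Tbx18* span more than a log2 unit.

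The fat markers that moved with genotype had 8 of 11 genes tested, of which all 8 had a log2 fold change above 0 (median 5.32) and 1 (*Pparg*) passed the test, and none of the 11 was at 0 in all libraries. *Lipe* made up most of the fat sum in controls (mean 10.3 CPM), and *Fabp4* was higher in every cKO library than in every control. In cKO replicate 4, whose fat sum, but not *Fabp4*, was at the control level, *Tbx2* was at 23.7 CPM, above the highest control at 18.7 CPM. Compared alone with the controls, this library gave *Tbx2* a log2 fold change of 0.40 (adjusted *p* = 0.318 in edgeR, with the lone library assumed to vary like the controls). With the summed fat level as a covariate the log2 fold change was 0.42 (adjusted *p* = 0.243 in edgeR), so that the call was lost in both while the direction stayed. The fat sum was high only in cKO replicates 1 to 3. Both analyses thus rest largely on cKO replicate 4 and are not separate checks. Without cKO replicate 4 or any other library in turn, the log2 fold change of *Tbx2* lay between 0.58 and 0.74.

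Lists of urothelium, heart muscle and skeletal muscle markers also held genes that were higher in cKO uteri or sums that did not overlap. The 3 urothelial genes summed to 2.28 to 5.74 CPM in controls and 6.59 to 9.20 CPM in cKO libraries, with 0 of 3 passing the test. The 5 heart muscle genes, which include *Tnnt2*, also found in other muscle, summed to 50.2 to 57.4 CPM and 64.1 to 89.2 CPM, with 2 of 3 tested genes passing (*Tnnt2* and *Myh6*) and *Nkx2-5*, which defines heart muscle, at 0 counts in every library. Over all genes tested, 2.62% passed and were higher in cKO uteri. Of 10 skeletal muscle genes, 5 were tested and 2 passed, both higher in cKO uteri. They were *Myh3*, an embryonic myosin (0.0728 ± 0.0651 against 1.33 ± 0.665 CPM in control and cKO, SD, n = 4; log2 fold change 4.08, adjusted *p* = 0.00388, edgeR quasi-likelihood test), and *Tnnt3*, a fast muscle troponin (3.27 ± 0.504 against 5.66 ± 1.52 CPM; 0.80, adjusted *p* = 0.0295). The median log2 fold change of the 5 was 0.82, with 4 above 0 and 1 below. *Mylpf* was higher in every cKO library than in every control but did not pass. The list summed to 44.9 to 76.3 CPM in control and 40.9 to 65.5 CPM in cKO libraries, and the genotypes overlapped in this sum. *Acta1*, the gene below 0, made up most of it (49.4 ± 13.9 against 45.2 ± 8.25 CPM) and did not pass. Of the 5 genes below the filter, *Myog* (0.0186 ± 0.0215 against 0.684 ± 0.498 CPM) and *Myod1* (0 against 0.176 ± 0.0667 CPM) were higher in every cKO library than in every control, and *Pax7* was at 0 counts in every library. The part of these 3 lists in the *Tbx2* difference was not tested.

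**Figure D3:**
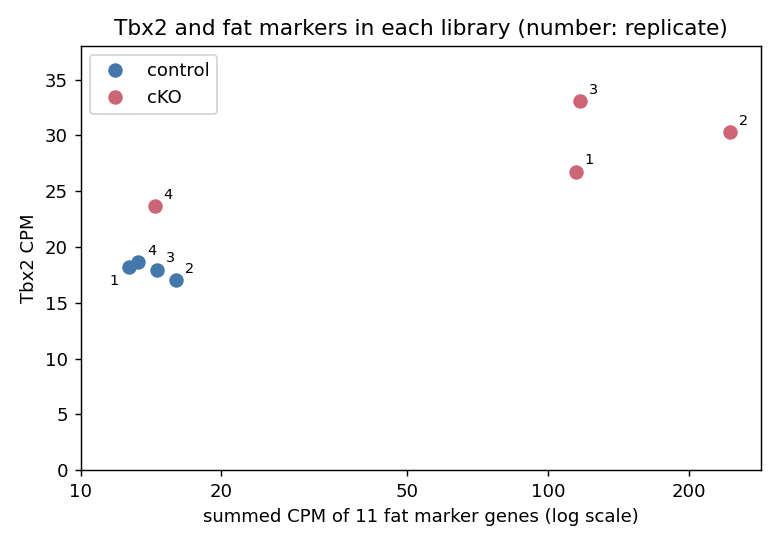
*Tbx2* CPM against the summed CPM of 11 fat marker genes (log axis) in each library, labelled by replicate number. The cKO replicates 1 to 3 lie at 114.7 to 245.8 CPM of fat markers and 26.8 to 33.1 CPM of *Tbx2*. The cKO replicate 4 lies among the controls in the fat marker sum (14.4 CPM) and above them in *Tbx2* (23.7 CPM).

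*Tbx3* (chromosome 5 from 119670534 to 119684724) encodes the repressor most similar to TBX2, and is known for its role in mammary gland and limb formation. Its expression was 111.5, 130.9, 97.1 and 105.1 CPM in control replicates 1 to 4 and 101.4, 111.2, 112.5 and 90.3 CPM in cKO replicates 1 to 4. The genotypes overlapped, with the highest value in a control and the lowest in a cKO library. The log2 fold change was -0.10 (SE 0.094, 95% interval -0.30 to 0.11, adjusted *p* = 0.586, edgeR quasi-likelihood test), with 2577 to 3829 counts per library behind it. No alternative analysis gave a call. The value was -0.010 without control replicate 2, -0.15 without control replicate 3, -0.30 with cKO replicate 4 alone and -0.31 with the fat covariate.

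The proportion between these repressors differed between genotypes. For each count on *Tbx3* there were 0.163, 0.130, 0.185 and 0.178 counts on *Tbx2* in control replicates 1 to 4, and 0.264, 0.272, 0.294 and 0.262 in cKO replicates 1 to 4. All cKO libraries lay above all controls, and this ratio within a library does not depend on how libraries are scaled. The means were 0.164 ± 0.0244 (SD, n = 4) and 0.273 ± 0.0145 (SD, n = 4), a 1.66-fold difference of the means (*p* = 0.029 in the exact permutation test on the log2 ratio, two-sided, the smallest possible). The ratio in cKO replicate 4, at 0.262, was close to that of the other cKO libraries, with *Tbx3* there the lowest of all libraries (90.3 CPM). The ratio uses the *Tbx2* counts given above and is not a separate result.

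**Figure D4:**
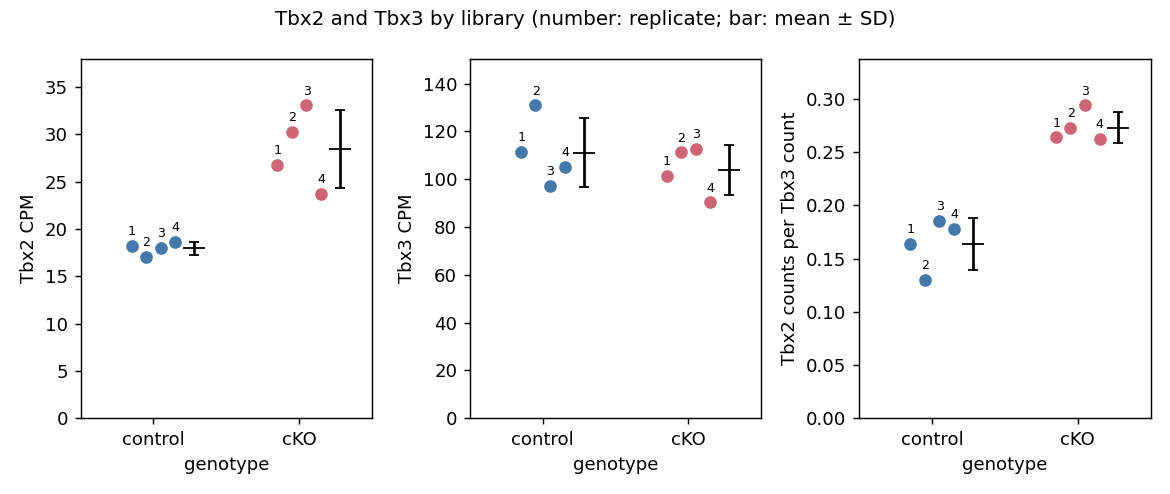
*Tbx2* CPM, *Tbx3* CPM and the ratio of *Tbx2* to *Tbx3* counts in each library, numbered by replicate, with the mean and SD of 4 libraries as a bar. The genotypes separate in the *Tbx2* panel (17.0 to 18.7 against 23.7 to 33.1 CPM) and in the ratio panel (0.130 to 0.185 against 0.262 to 0.294), and overlap in the *Tbx3* panel.

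*Tbx2* and *Tbx3* each have a T-box neighbour, and each pair descends from an ancestral tandem pair of genes. *Tbx4*, 44419 bases from *Tbx2* on chromosome 11 (85886367 to 85916097), is the hindlimb and lung member of the family. Its expression was 1.86, 2.17, 2.35 and 1.54 CPM in control replicates 1 to 4 and 2.14, 2.95, 2.09 and 1.82 CPM in cKO replicates 1 to 4. The highest value was in cKO replicate 2 and the lowest in control replicate 4, with the other libraries overlapping. The log2 fold change was 0.19 (SE 0.20, 95% interval -0.25 to 0.64, adjusted *p* = 0.623, edgeR quasi-likelihood test). It was 0.037 without cKO replicate 2, 0.084 without control replicate 4, 0.29 without control replicate 3, -0.11 with cKO replicate 4 alone and -0.21 with the fat covariate. The interval of *Tbx4* overlapped that of its neighbour *Tbx2*, and whether the 2 changes differ was not tested.

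*Tbx5*, the forelimb and heart member, lies 111790 bases from *Tbx3* on chromosome 5 (119796514 to 119885220). It had 1 count in cKO replicate 1 and 0 in the other 7 libraries. *Tbx3*, the other gene of the pair, was the most abundant member. The non-coding *2610027K06Rik*, 227 bases from *Tbx2*, had a mean of 0.526 CPM in controls and 0.765 CPM in cKO uteri (log2 fold change 0.56, SE 0.36, adjusted *p* = 0.396, edgeR quasi-likelihood test). *Tbx3os2*, 364 bases from *Tbx3*, had means of 0.447 and 0.287 CPM (log2 fold change -0.65, SE 0.36, adjusted *p* = 0.318 by the same test). Neither neighbour passed the test.

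*Tbx1*, *Tbx15*, *Tbx18* and *Tbx20* form another branch of the family. *Tbx1* (chromosome 16 from 18580979 to 18590671), the pharyngeal gene of DiGeorge syndrome, was at 2.11, 2.32, 3.25 and 2.31 CPM in control replicates 1 to 4 and at 2.83, 3.58, 2.86 and 2.35 CPM in cKO replicates 1 to 4. Control replicate 3 lay among the cKO libraries, and without it the genotypes did not overlap, as for 16.5% of all genes tested. The log2 fold change was 0.22 (SE 0.19, 95% interval -0.19 to 0.63, adjusted *p* = 0.527, edgeR quasi-likelihood test). It was 0.11 without cKO replicate 2, 0.38 without control replicate 3, -0.084 with cKO replicate 4 alone and -0.14 with the fat covariate, so that no direction can be given for *Tbx1*.

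*Tbx18* (chromosome 9 from 87702800 to 87731260) acts in mesenchyme that forms smooth muscle around the ureter, in the epicardium and in mural cells of vessels. It was at 1.29, 2.28, 1.28 and 0.851 CPM in control replicates 1 to 4 and at 2.25, 1.27, 1.36 and 0.175 CPM in cKO replicates 1 to 4. The last value stands for 5 counts, where the 7 other libraries had 31 to 59, and the remaining cKO libraries lay within the control range. The log2 fold change of -0.17 (SE 0.53, 95% interval -1.34 to 1.01, adjusted *p* = 0.892, edgeR quasi-likelihood test) turned to 0.20 without cKO replicate 4 and to 0.14 without control replicate 2, and was -2.97 with cKO replicate 4 alone and -2.28 with the fat covariate, neither of which gave a call. Markers of pericytes, a type of mural cell, summed to 873 to 1231 CPM in controls and 885 to 1144 CPM in cKO libraries, and were at 885 CPM in cKO replicate 4. Their part in the low *Tbx18* value was not tested.

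*Tbx15* (chromosome 3 from 99240348 to 99354260), a gene of skeletal and dermal mesenchyme, was at 0.442, 0.116, 0.214 and 0.220 CPM in controls and at 0.0388, 0.268, 0.308 and 0.0701 CPM in cKO uteri, in replicate order. These are 1 to 14 counts per library, close to the limit of 3 counts, and the genotypes overlapped, with the highest value in a control and the lowest in a cKO library. The log2 fold change was -0.49 (SE 0.58, 95% interval -1.76 to 0.77, adjusted *p* = 0.665, edgeR quasi-likelihood test). It went from -0.068 without control replicate 1 to -0.94 without cKO replicate 3, and was -1.79 with cKO replicate 4 alone and -1.63 with the fat covariate. *Tbx20* (chromosome 9 from 24720812 to 24774303), a gene of heart muscle and valves, had 0 counts in all 8 libraries, which allows up to 3 of the 238804654 counts, or 0.0126 CPM, over all of them.

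*Tbx6* (chromosome 7 from 126781483 to 126785548) directs paraxial mesoderm in the early embryo. It was at 0.442, 0.774, 0.321 and 0.467 CPM in control replicates 1 to 4 and at 1.67, 0.770, 0.647 and 0.490 CPM in cKO replicates 1 to 4. The highest value was in cKO replicate 1, and control replicate 2 lay within the cKO range. Without that control the genotypes did not overlap, as for 19.2% of all genes tested. The log2 fold change was 0.83 (SE 0.41, 95% interval -0.05 to 1.70, adjusted *p* = 0.263, edgeR quasi-likelihood test), with 9 to 43 counts per library. It was 0.36 without cKO replicate 1, which held the 43 counts, 0.19 with the fat covariate and -0.013 with cKO replicate 4 alone. *Ypel3*, 973 bases away on one side, and *Ppp4c*, 318 bases away on the other, had log2 fold changes of 0.09 and -0.03 and did not pass the test.

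EZH2 acts on promoters rich in CpG, and the upstream sequence of *Tbx20*, which had no counts, is shown with that of *Tbx4*, which had counts in every library. RefSeq promoter entries (GRCm38.p6) were matched for 5 of the 9 members, with 6 promoters, and the 250 bases before the annotated start are given on the strand of the gene with CpG in capitals. They are at chr9:24774304-24774553 (minus strand) for *Tbx20* and at chr11:85896515-85896764 (plus strand, at a start within the annotated *Tbx4* gene) for *Tbx4*.
Tbx20: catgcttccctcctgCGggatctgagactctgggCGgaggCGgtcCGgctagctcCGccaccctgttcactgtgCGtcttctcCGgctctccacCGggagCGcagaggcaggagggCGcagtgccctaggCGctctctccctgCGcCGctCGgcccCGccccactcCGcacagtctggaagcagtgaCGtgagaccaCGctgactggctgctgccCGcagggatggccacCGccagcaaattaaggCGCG
Tbx4: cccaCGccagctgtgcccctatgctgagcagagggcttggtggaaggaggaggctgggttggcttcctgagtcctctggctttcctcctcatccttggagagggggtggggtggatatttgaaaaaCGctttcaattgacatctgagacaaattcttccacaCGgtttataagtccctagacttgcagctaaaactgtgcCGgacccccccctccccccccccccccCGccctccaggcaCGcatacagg

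These 250 bases hold 22 CpG in *Tbx20* and 6 in *Tbx4*. Over the full entries of 300 bases, which include 50 bases after the start, the count was 26 for *Tbx20*, 26 and 16 for the promoters of *Tbx1*, 15 for *Tbx18*, 8 for *Tbx4* and 7 for *Tbx6*, beside a median of 7 over 32851 promoters. *Tbx1*, with 1 promoter as rich in CpG as that of *Tbx20*, had 60 to 107 counts per library, and *Tbx18* had 5 to 59. Whether CpG content goes with expression was not tested. No measurement of histone marks or EZH2 binding was analysed here.

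T-box genes outside the set were given by level. *Mga*, which encodes a large protein with a T-box and a MAX-type dimerization domain, was the most abundant, at 203.4 ± 13.8 CPM in controls and 184.4 ± 17.2 CPM (SD, n = 4) in cKO uteri (log2 fold change -0.14, adjusted *p* = 0.292, edgeR quasi-likelihood test). *Tbx21*, the T-bet gene of lymphocytes, was at 0.725, 1.08, 0.321 and 0.329 CPM in controls and 0.272, 0.134, 0.277 and 0.175 CPM in cKO uteri. All cKO libraries lay below all controls, but the log2 fold change of -1.47 (SE 0.47) had an adjusted *p* of 0.0920 by edgeR's quasi-likelihood test. Brachyury (*T*) was at 0.294 ± 0.169 and 0.376 ± 0.137 CPM (SD, n = 4), and did not pass the test. *Tbx10*, *Tbx19*, *Tbx22*, *Tbr1* and *Eomes* were below the filter on low counts.

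Among 18 signals and factors known to act upstream of T-box genes in other organs, 14 were tested. Of these, 1 rose and 5 fell (adjusted *p*-value under 0.05), where 2.62% and 2.71% of all genes did, and the median log2 fold change was -0.18. The ligand genes *Bmp7* (38.4 ± 1.52 against 21.3 ± 1.28 CPM in controls and cKO, SD, n = 4), *Bmp4* (22.6 ± 2.08 against 16.4 ± 1.22), *Wnt5a* (382.6 ± 21.4 against 284.9 ± 34.6) and the hedgehog ligand *Ihh* (4.36 ± 0.950 against 0.360 ± 0.256) fell, as did *Hoxa11* (172.2 ± 9.53 against 122.7 ± 16.0), a Hox gene of the uterine mesenchyme. Their log2 fold changes went from -3.58 for *Ihh* to -0.43 for *Wnt5a*, with adjusted *p*-values of at most 0.0104 by edgeR's quasi-likelihood test. *Hoxd13*, a Hox gene of the most distal limb and urogenital tract, rose from 0.303 ± 0.175 to 2.72 ± 0.566 CPM (SD, n = 4; log2 fold change 3.21, SE 0.33, adjusted *p* = 0.000164). *Bmp7* and *Ihh* passed the test in all 20 alternatives, and *Hoxd13* in 19, while *Bmp4*, *Wnt5a* and *Hoxa11* did not pass with cKO replicate 4 alone or with the fat covariate. In these 2 analyses the log2 fold change was -0.53 and -0.52 for *Bmp4* (-0.46 with all libraries and no covariate), -0.60 and -0.61 for *Hoxa11* (-0.49), and -0.29 in both for *Wnt5a* (-0.43). For *Hoxd13* the call was lost with cKO replicate 4 alone, at a log2 fold change of 2.93. *Shh* and *Fgf8* had 0 counts in all libraries.

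Of 18 genes for partner proteins and co-repressors of T-box factors, 12 were tested, 1 rose and 1 fell, where 2.62% and 2.71% of all genes did. The median log2 fold change was 0.03. *Gata6*, a GATA factor of mesoderm-derived organs, rose from 17.9 ± 0.618 to 29.6 ± 4.62 CPM (SD, n = 4; log2 fold change 0.73, SE 0.10, adjusted *p* = 0.00144, edgeR quasi-likelihood test). *Tle4*, a Groucho-type co-repressor, fell from 31.2 ± 4.05 to 23.0 ± 0.841 CPM (log2 fold change -0.44, adjusted *p* = 0.0134). *Nkx2-5*, which encodes a heart partner of TBX5 and TBX20, had 0 counts and *Gata4* was below the filter. Neither call was made with cKO replicate 4 alone or with the fat covariate, and that of *Tle4* was also lost without control replicate 1. In these 2 analyses the log2 fold change of *Gata6* was 0.37 and 0.40, and that of *Tle4* was -0.43 and -0.46, and -0.42 without control replicate 1. Without cKO replicate 4, 4 genes of this list passed.

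Of 19 genes described as targets of T-box factors, 15 were tested, 2 rose and none fell, where 2.62% and 2.71% of all genes did. The median log2 fold change was 0.10. Both that rose encode inhibitors of the cell cycle of the kind that TBX2 and TBX3 are known to repress. *Cdkn1b* rose from 85.4 ± 4.27 to 100.4 ± 4.76 CPM (SD, n = 4; log2 fold change 0.23, adjusted *p* = 0.0331, edgeR quasi-likelihood test). *Cdkn2a* rose from 0.219 ± 0.0935 to 0.549 ± 0.0384 CPM (log2 fold change 1.30, adjusted *p* = 0.0484), at 91 counts in all. These calls lie near the threshold: leaving out any library ended that of *Cdkn2a*, and leaving out control replicate 1, 3 or 4 or cKO replicate 1, 2 or 3 ended that of *Cdkn1b*. With each library left out in turn, log2 fold changes lay between 1.11 and 1.52 for *Cdkn2a* and between 0.21 and 0.26 for *Cdkn1b*. The call of *Cdkn2a* was also lost with DESeq2 (1.32, adjusted *p* = 0.0665) and without the filter on low counts (1.29). Neither gene passed with cKO replicate 4 alone (1.42 for *Cdkn2a* and 0.18 for *Cdkn1b*) or with the fat covariate (1.43 and 0.17). *Cdkn1a*, another inhibitor that TBX2 is known to repress, was at 6.91 ± 0.422 CPM in controls and 5.77 ± 0.728 CPM in cKO uteri (SD, n = 4). It did not pass the test, though all cKO libraries lay below all controls (log2 fold change -0.26). *Fgf10*, the lung and limb target of TBX4 and TBX5, was at 15.5 ± 2.42 and 18.7 ± 0.465 CPM. It did not pass either, though all cKO libraries lay above all controls.

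**Figure D5:**
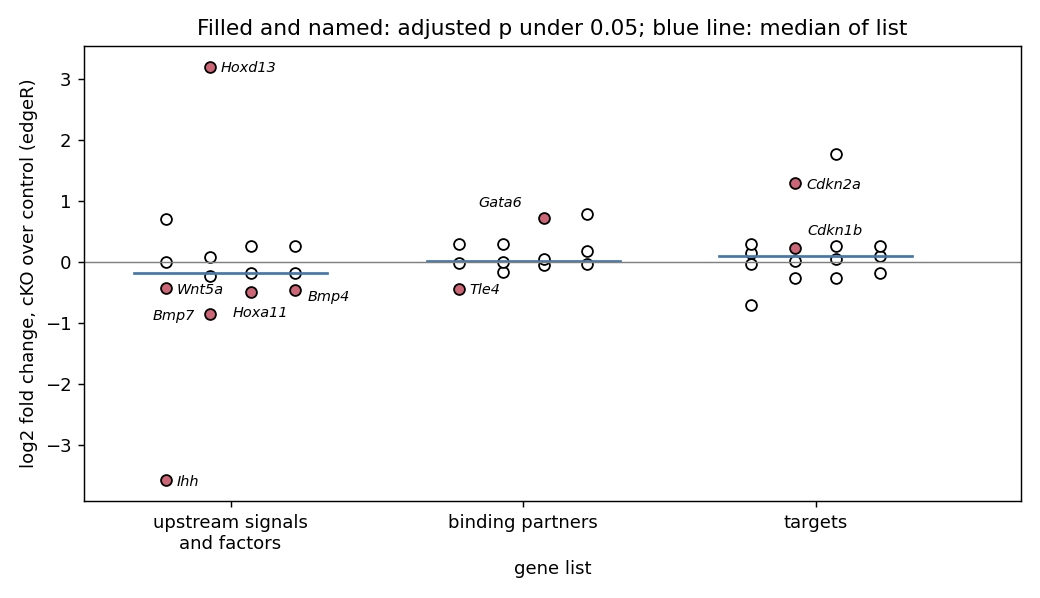
Log2 fold change, cKO over control, of the tested genes of 3 lists (14 upstream signals and factors, 12 binding partners and 15 targets), with genes that passed the test filled and named and the median of each list as a blue line. *Ihh* (-3.58) and *Hoxd13* (3.21) lie farthest from 0, and the medians of the lists are -0.18, 0.03 and 0.10.

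Of 11 genes for polycomb complex subunits, including *Ezh2*, all were tested and 0 passed, where 5.34% of all genes did. The median log2 fold change was -0.05. None of the 11 had libraries that separated the genotypes.

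The genes whose levels followed *Tbx2* most closely over the 8 libraries, among 14455 genes with a mean of at least 1 CPM, were *Gm15706* (Pearson's *r* = 0.993), *Nipsnap2* (0.992) and *Vegfd* (0.980). *Nipsnap2* encodes a mitochondrial protein and *Vegfd* a growth factor for lymphatic vessels. Their log2 fold changes were 0.86, 0.14 and 0.65. The 8 points share library and genotype, and these values are a description.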

How the data were processed

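Total RNA of whole uteri was sequenced from stranded mRNA libraries, 4 per genotype. The authors used Trimmomatic for trimming, FastQC for quality checks, HISAT2 for alignment to GRCm38 and featureCounts for counting, and the deposited counts per Entrez gene are not normalized. Annotation release, strand setting and the treatment of multi-mapping reads are not given in the sources used here. A table of the authors' edgeR comparison gave the gene symbols, and its fold changes and *p*-values, like a normalized table, were not used.

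Counts of 27179 genes were fitted with edgeR 4.0.16 in R 4.3.3 (TMM, glmQLFit and glmQLFTest with robust = TRUE, prior count 0.125), on the 16658 genes with CPM over 0.2 in at least 4 libraries, with Benjamini-Hochberg adjustment over all of them. The filter, TMM, the robust setting, the adjustment and the definition of DE genes (fold change over 2, adjusted *p*-value under 0.05) follow the methods of the study, which name edgeR without the quasi-likelihood test or a prior count. The SE of a log2 fold change was obtained from its F value (its size over the root of F). The exact permutation test used log2(CPM + 0.1) and 70 arrangements. CPM per kb used the union of GENCODE exons. Coordinates, neighbours and promoters came from RefSeq tables of GRCm38.p6, matched by Entrez identifier.

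On simulated counts for 16658 genes of this comparison 198 of 200 changed genes were recovered, 13 unchanged genes were called, and 0 were called where nothing was changed. The simulation gave all genes the same dispersion and changed only genes with a mean of at least 1 CPM. It therefore gives no recovery rate for *Tbx6* and *Tbx15*, which lie below that level, or for genes as variable as *Tbx18*. No pair of the 8 libraries agreed within sampling noise (chi-square per gene 7.54 to 30.6 over 28 pairs). DESeq2 1.42.0, limma-voom (limma 3.58.1), other normalizations and filters, edgeR's likelihood ratio test, a replicate block, leaving out each library, cKO replicate 4 alone and a fat covariate were alternatives. Named genes are all members, other T-box genes, genes of the upstream, partner and target lists with an adjusted *p*-value under 0.05, *Ezh2*, neighbouring genes and the 3 genes most correlated with *Tbx2*. *Fgf10*, *Cdkn1a*, *Gata4*, *Shh*, *Fgf8*, *Nkx2-5* and the single genes of marker lists were named after their values were seen. Members and lists were chosen with earlier results of these data known. A gene of the partner list is not reported here, and the counts of that list leave it out.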

Additional observations from a re-analysis of the deposited data

How the results depend on the processing

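*Tbx2* was higher in cKO uteri in all 20 alternatives and passed the test in 18. The number of members with an adjusted *p*-value under 0.05 was 1, and 0 with cKO replicate 4 alone (*Tbx2* log2 fold change 0.40) or with the fat covariate (0.42). No member was DE in any of 21 alternatives. Members with libraries that do not overlap numbered 1 to 2 on leaving out a library (2 without control replicate 2 or 3, where 19.2% and 16.5% of all genes did not overlap) and 4 with cKO replicate 4 alone, where 42.6% did not. Genes called among the upstream signals numbered 6 to 8 on leaving out a library, 2 with cKO replicate 4 alone and 3 with the fat covariate. Among partners they numbered 1 (without control replicate 1) to 4 (without cKO replicate 4), 0 and 0 in that order. Among targets they numbered 0 to 2, 0 and 0, and 1 without a filter or with CPM over 1 in 4 libraries. The log2 difference of the *Tbx2* to *Tbx3* ratio was 0.64 to 0.81 on leaving out a library, and 0.69 with cKO replicate 4 alone, where 0.2 is the smallest exact *p*. Directions turned for *Tbx1* (-0.084 and -0.14) and *Tbx4* (-0.11 and -0.21) with cKO replicate 4 alone and the fat covariate, for *Tbx6* (-0.013) with cKO replicate 4 alone, and for *Tbx18* without control replicate 2 (0.14) or cKO replicate 4 (0.20; range -0.57 to 0.20 on leaving out a library). The cause was not tested, but cKO replicate 4 alone leaves 5 libraries. The number of all genes with an adjusted *p*-value under 0.05 was 889, 1510 with DESeq2, 1512 with the likelihood ratio test, 425 (without control replicate 1) to 1783 (without cKO replicate 4), 38 with cKO replicate 4 alone and 76 with the fat covariate. DE genes numbered 217, 258 with DESeq2, 356 with the likelihood ratio test, 142 (without cKO replicate 2) to 336 (without cKO replicate 4), 22 with cKO replicate 4 alone, 34 with the fat covariate and 139 with CPM over 1. Same-numbered libraries correlated at 0.066, 0.156, -0.042 and 0.263 over 14456 genes. Control and cKO replicate 4 correlated best with each other, but not every library correlated best with its own number. The labels number the replicates without saying whether they pair the mice, and these values cannot decide it. With the replicate block *Tbx2* had a log2 fold change of 0.65 (adjusted *p* = 0.00111 in edgeR), 1240 genes had an adjusted *p*-value under 0.05, and *Cdkn2a* no longer passed (1.32, adjusted *p* = 0.0534).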
